A study of Mus musculus and Homo sapiens with 83 samples.

Results

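The cytosolic ribosomal protein genes of mouse embryonic stem cells (mESCs) were taken by gene symbol: every symbol made of Rpl or Rps and a number, with an optional closing letter or digit, together with Rpsa and Rplp0 to Rplp2, and without the symbols ending in -ps that mark processed pseudogenes. The rule gave 89 genes of 55401 gene IDs counted, 53 of the large and 36 of the small ribosomal subunit. Of these, 77 were canonical members, 46 of the large and 31 of the small subunit, and 12 were copies with an l suffix or a further number, such as Rpl39l and Rps3a2. In all, 82 of the 89 had a read in at least 1 cell and 7 had none.

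RNA was read from 24 single E14 cells (129/Ola) by AMAR-seq, which draws the cytoplasmic RNA of a cell away from its nucleus on a chip and makes full-length cDNA from it. The 6 day 0 cells were held in self-renewal on mouse embryonic fibroblast (MEF) feeders with leukaemia inhibitory factor (LIF). The other cells had been replated on gelatin without LIF or feeders, so that they differentiated in no set direction, and 7 were taken at day 3, 6 at day 6 and 5 at day 9. Day 0 and the later days thus differ in LIF, feeders, plate coating and time together, and their parts cannot be told apart.

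A ribosome is built from ribosomal RNA and a fixed set of ribosomal proteins, which cells need in matched amounts. The large subunit joins amino acids and carries the acidic stalk, of which Rplp0 is the base, and the small subunit reads the message. Ribosomal protein messages are short, abundant and start with a run of pyrimidines, the TOP motif, through which the kinase mTOR and the binding protein Larp1 set their translation with growth.

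Gene reads per cell numbered 3913595 to 16367029. A single gene, CT010467.1, took 13.0% to 75.2% of them. Mitochondrially encoded transcripts took 24.2%, 11.8%, 17.8% and 15.5% in day 0 cells 1 to 4, 3.29% and 4.09% in day 0 cells 5 and 6, and 18.6% in day 9 cell 4. Of the 10 stem cell markers, 9 had reads on each day, and their median relative log2 ratio (defined below) was -0.48 at day 3, 0.28 at day 6 and -0.98 at day 9 against day 0. In counts per 1000000 gene reads (CPM), Pou5f1 stood at 137, 572, 576 and 271 on days 0, 3, 6 and 9, and Esrrb at 111, 29.9, 52.8 and 29.8. Sox2 had 0 reads in every library, and its RefSeq span lies within that of Sox2ot, which had 1478 reads. The summed level of 10 feeder fibroblast markers ran from 0 to 307 CPM in day 0 cells, 2.78 to 25.1 CPM in day 3 cells, 0 to 65.0 CPM in day 6 cells and 0 to 115 CPM in day 9 cells; at day 3, 4 of the 10 (Col3a1, Postn, Twist2 and Lum) were at 0 and 6 had reads, Acta2 with most (5.32 CPM). Of the 8 measured at day 3 against day 0, 7 were 2-fold lower and Pdgfrb, at 2.65 CPM at day 3 against 0.18 CPM at day 0, was higher. Of all genes, 23.5% were 2-fold lower and 20.7% higher. The summed marker level at day 0 was uneven, with 0.23 CPM in cell 1, 0 in cell 4 and 307 CPM in cell 6. The part of feeder RNA and of mitochondrial reads in the values below was not tested.

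The sequences around the start sites of 8 members were read from RefSeq (GRCm38.p6, the mm10 assembly) to show the promoter type. They are 4 members that stood among the highest of the later days (Rplp0, Rps6, Rps2 and Rpsa) and 4 among the lowest (Rpl38, Rps27, Rps15 and Rpl37a). Each line holds 60 bases before the start site and 20 bases from it, 5′ to 3′ on the strand of the gene. Capitals mark CCGGAAG, the core bound by ETS factors, and CTTTC near the start site, a form of the pyrimidine start of TOP messages. Other pyrimidine runs, such as ctctttttc at the start site of Rps6, are not marked.
Rplp0, chr5:115559407-115559486, plus strand: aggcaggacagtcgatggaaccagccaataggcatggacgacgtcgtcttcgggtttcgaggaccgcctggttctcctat
Rps6, chr4:86857348-86857427, minus strand: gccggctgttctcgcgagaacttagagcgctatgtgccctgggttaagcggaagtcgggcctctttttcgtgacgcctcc
Rps2, chr17:24720003-24720082, plus strand: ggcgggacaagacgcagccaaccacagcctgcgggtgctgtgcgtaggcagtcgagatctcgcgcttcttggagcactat
Rpsa, chr9:120127706-120127785, plus strand: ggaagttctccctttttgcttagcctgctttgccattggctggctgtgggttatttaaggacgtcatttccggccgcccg
Rpl38, chr11:114668520-114668599, plus strand: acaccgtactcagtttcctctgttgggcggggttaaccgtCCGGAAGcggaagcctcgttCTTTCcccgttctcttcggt
Rps27, chr3:90213629-90213708, minus strand: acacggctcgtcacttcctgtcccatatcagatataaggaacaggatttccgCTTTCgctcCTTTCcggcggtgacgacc
Rps15, chr10:80292371-80292450, plus strand: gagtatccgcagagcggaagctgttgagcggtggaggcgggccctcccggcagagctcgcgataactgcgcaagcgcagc
Rpl37a, chr1:72711200-72711279, plus strand: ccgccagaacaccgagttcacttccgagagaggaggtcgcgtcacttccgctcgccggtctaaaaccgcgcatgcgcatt

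RefSeq promoter windows of 300 bases were matched for 64 of the 89 members. CCGGAAG, searched on both strands, lay in the window of 26 of the 64 members (40.6%), against 9.93% of all 27025 genes in the table. CTTTC, searched on the gene's strand in the 50 bases around the start site, lay in 22 of 64 members (34.4%), against 7.66% of all genes. AAGATGGC, the core of YY1 sites, lay in 6 of 64 (9.38%), against 3.19%. The 3 motifs were chosen after the promoters had been looked at, and a match is only a match of letters. A member without CTTTC may still start with another pyrimidine run. At day 9 against day 0, the 19 measured members with CTTTC had a median relative log2 ratio (defined below) of -0.71 and the 40 without it -0.57. The ratios with CTTTC ran from -3.77 to 0.32 and those without it from -2.12 to 1.57, so they overlapped over most of their range. At days 3 and 6 against day 0 the medians were -0.20 and -0.38 with CTTTC, and -0.16 and -0.16 without it. For CCGGAAG they were -0.18, -0.46 and -0.66 at days 3, 6 and 9, and -0.16, -0.15 and -0.56 without it. Whether a motif goes with a member's ratio was not tested.

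At the level of the whole set, the share of gene reads on ribosomal protein genes differed more among the cells of each day than among the pooled days. Pooled over cells, these genes held 8.86%, 8.81%, 11.7% and 10.2% of gene reads on days 0, 3, 6 and 9. The exact binomial 95% intervals (8.85% to 8.87% for day 0) cover counting error only. Single cells ran from 6.07% to 13.4% at day 0 (median 8.35%), from 3.46% to 13.8% at day 3 (7.54%) and from 7.06% to 16.7% at day 6 (12.7%). The 5 day 9 cells had 4.62%, 8.55%, 9.99%, 9.89% and 14.5%. All 4 ranges overlapped. Since a library is a single cell and the labels tell of no repeat cultures, a day is 1 sample here, and no test between days was made.

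With CT010467.1 left out of the total, the pooled shares of days 0, 3, 6 and 9 were 16.5%, 19.3%, 18.0% and 14.4%, a different order of the days. Across the 24 cells, the share of gene reads correlated with that of CT010467.1 at r = -0.66 (Spearman's rho -0.67), and the share with CT010467.1 left out at r = 0.02. The share of gene reads, with CT010467.1 in the total, was higher in cells with a higher share of reads counted as ambiguous between genes (r = 0.88, rho 0.89). These correlations are descriptions of cells that share days and totals. For a share of a library, more ribosomal protein RNA and less of other RNA cannot be told apart.

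Summed reads on the large subunit genes exceeded summed reads on the small subunit genes in every cell. The sums cover 49 large and 33 small subunit genes with reads, so they do not show a higher level per gene. The ratio of large to small subunit reads, pooled over cells, was 1.22, 1.24, 1.31 and 1.28 on days 0, 3, 6 and 9, or 0.29, 0.31, 0.39 and 0.36 on the log2 scale. Single cells lay between 0.13 and 0.43 at day 0, 0.23 and 0.45 at day 3, 0.28 and 0.43 at day 6 and 0.25 and 0.41 at day 9 on that scale, so no pair of days was apart. Large subunit genes had 11773227 reads and small subunit genes 9287126 over all cells. Per kilobase of transcript, estimated for 61 members from the span of their pseudogenes (see the span comparison further on), the log2 ratio was 0.40, 0.41, 0.50 and 0.47 on these days. These sums too cover more large than small subunit genes.

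**Figure D1:**
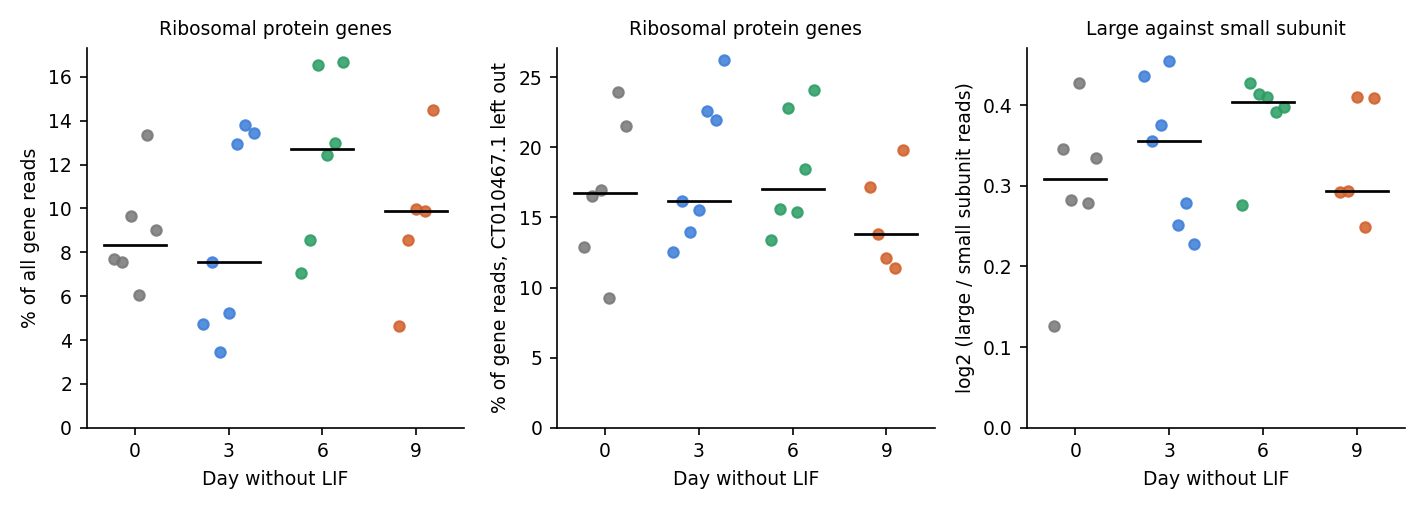
Share of gene reads on ribosomal protein genes (left), the same with CT010467.1 left out of the total (middle) and log2 ratio of large to small subunit reads (right), by day, with 1 point per cell and the median as a line. The cells of the 4 days overlap in each panel, and every cell lies above 0 in the right panel. The right panel compares sums over more large than small subunit genes.

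Within the set, levels spread widely. Rpl14, a large subunit protein, had the most reads of any member, with 4077, 4934, 6431 and 7091 CPM on days 0, 3, 6 and 9. Rpl8 and Rplp0 were also among the large subunit genes with most reads, and Rps19, Rpsa, Rps20 and Rps14 led the small subunit. Rps19 is the protein most often mutated in human Diamond-Blackfan anaemia, and Rpsa is also known as the laminin receptor precursor. Per kilobase of pseudogene span, averaged over days, Rpl14 stood at 8117 CPM and Rps19 at 6826 CPM. At the other end were Rpl29 with 46.9 CPM per kilobase, Rpl13a with 206 and Rps10 with 277. Rpl24, which has no such span, had 5032 reads in all. What part reads aligned to several places have in these low counts was not tested; they were 3.86% to 18.8% of all reads of a library. The RefSeq span of Rpl13a holds 4 small nucleolar RNA genes, and pseudogenes named for Rps10 took 7041 reads against 32680 on the gene itself.

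Of the 7 members with 0 reads in every library, 3 are canonical. Rpl13 (chr8:123102350-123105244), Rpl35 (chr2:39001581-39005131) and Rpl35a (chr16:33056453-33060189) code for large subunit proteins that every cell uses, so they are said here only to be listed at 0. The pseudogenes named for Rpl13 took 6244 reads, those for Rpl35a 2557 and that for Rpl35 0. In RefSeq, Rpl35a overlaps the gene Iqcg by 693 bases, Rpl35 overlaps Wdr38 by 4 bases, and Rpl13 holds Snord68 and Mir7079. No canonical small subunit gene was at 0: its 3 members without reads were the copies Rps12l1, Rps3a3 and Rps4l. These and Rpl32l, the fourth large subunit member at 0, each lie whole within the span of another gene, namely Nipa1, Pde4d, Tmtc1 and Map7. The floor of 3 reads in a day's summed cells was 0.0659, 0.0501, 0.0439 and 0.0822 CPM on days 0, 3, 6 and 9. With reads in all 24 cells were 78 members, and a further 4, all copies, had reads in some cells.

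Later days were then compared with day 0 for each member. The relative log2 ratio is the log2 ratio of the summed CPM of 2 days, with 1 CPM added, less the median of that value over all measured genes, which are those with a sum of 20 reads or more on the pair of days, found in 2 or more cells. That median was 0.09 at day 3, 0.49 at day 6 and 0.71 at day 9 against day 0, and 0.64 at day 9 against day 3. A member is called 2-fold higher or lower where this ratio is at least 1 or at most -1. Such calls are relative to the median gene and are not fold changes in CPM. The 3 comparisons with day 0 share its 6 cells.

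At day 3 against day 0, most members lay below the median gene, with Rpl3 and Rplp0 well above it and Rps15 and Rpl38 well below. Of 82 measured members, 4 were 2-fold higher, with 20.7% of all 14758 genes called so, and 13 were 2-fold lower, with 23.5% of all genes called so. Neither share of members exceeded that of all genes over all day 0 cells. The median relative log2 ratio was -0.22 (all genes 0), -0.21 for 49 large and -0.23 for 33 small subunit genes. Over the day 0 cells 5 and 6 alone, those under 10% mitochondrially encoded reads, it was -0.81. Over those cells 4 members were higher (4.88%, against 22.2% of all genes so compared) and 29 lower (35.4%, against 26.7%). Without day 3 cell 1 there were 8 higher and 3 lower, without day 3 cell 2, 3 or 4 there were 6 lower each, without day 0 cell 4 there were 2 higher, and without day 0 cell 6 there were 8 lower.

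Rpl3, which lies at the peptidyl transferase centre, stood highest of all members. It had 220.4 to 1337 CPM in day 3 cells (median 775) and 75.3 to 328 CPM in day 0 cells (median 240.1). The ranges overlapped, and the summed level was 754 CPM at day 3 against 222 CPM at day 0, a ratio with a 95% counting interval of 3.33 to 3.47 and a relative log2 ratio of 1.67. Rplp0, the stalk base, had 969 to 4295 CPM in day 3 cells (median 3179) and 407 to 1517 CPM in day 0 cells (median 1137), with a relative log2 ratio of 1.32. Rps2, at the mRNA entry channel, had a relative log2 ratio of 1.15 and 1236 to 5656 CPM in day 3 cells against 439 to 2196 CPM in day 0 cells. The fourth member called higher was the copy Rpl7l1 (1.55). Rpl4 followed at 0.94, Rps6, the substrate of the S6 kinases, at 0.89, and Rpsa at 0.87. Over the alternatives run, Rpl3 kept at least 1.29, while Rps2 went as low as 0.72, Rpl7l1 as low as 0.88 and Rplp0 as low as 0.99.

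At the lower end, Rps15, in the head of the small subunit, stood at -1.42. It had 249.7 to 1367 CPM in day 3 cells (median 494) and 1055 to 2556 CPM in day 0 cells (median 1684). Only 2 of the 7 day 3 cells reached the lowest day 0 cell. Rpl38, a short protein of the large subunit known for its part in the translation of Hox messages, stood at -1.34, with 123 to 485 CPM in day 3 cells and 327 to 1164 CPM in day 0 cells. Rpl24 stood at -1.53 on few reads, Rpl36a at -1.15, Rpl37a at -1.08, Rps27 at -1.25 and Rps21 at -1.17. On the CPM scale the cell ranges of no member were apart, while those of 1.8% of all genes were apart upwards and 0.413% downwards.

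As a share of the ribosomal protein reads, a total that holds neither CT010467.1 nor mitochondrial reads, 12 members did have day 3 cells apart from all day 0 cells. These were Rpl3, Rpl4, Rpl7, Rpl8, Rplp0 and Rpsa upwards and Rpl28, Rpl37a, Rpl38, Rpl41, Rps15 and Rps26 downwards. Those outside the naming rule were taken after their values were seen. How these members stand by message length is given in the span comparison further on. Scaled the same way, the ranges of 2.15% of all genes were apart upwards and 0.474% downwards. Here and in the comparisons below, these shares are not like for like. The scaling takes the swing shared by members between cells out of the members' values only. The median coefficient of variation of 74 members over day 3 cells was 55.5% in CPM and 15.6% on this scale. As shares of a fixed total, some members must also fall where others rise. Rpl3 made up 0.531% to 1.06% of ribosomal protein reads in day 3 cells and 0.124% to 0.427% in day 0 cells. Rpl28 made up 0.731% to 0.813% in day 3 cells and 0.960% to 1.28% in day 0 cells, the tightest member at day 3 with a coefficient of variation of 4.07%. Rps26, at the mRNA exit, made up 0.784% to 1.34% in day 3 cells and 1.41% to 2.01% in day 0 cells.

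**Figure D2:**
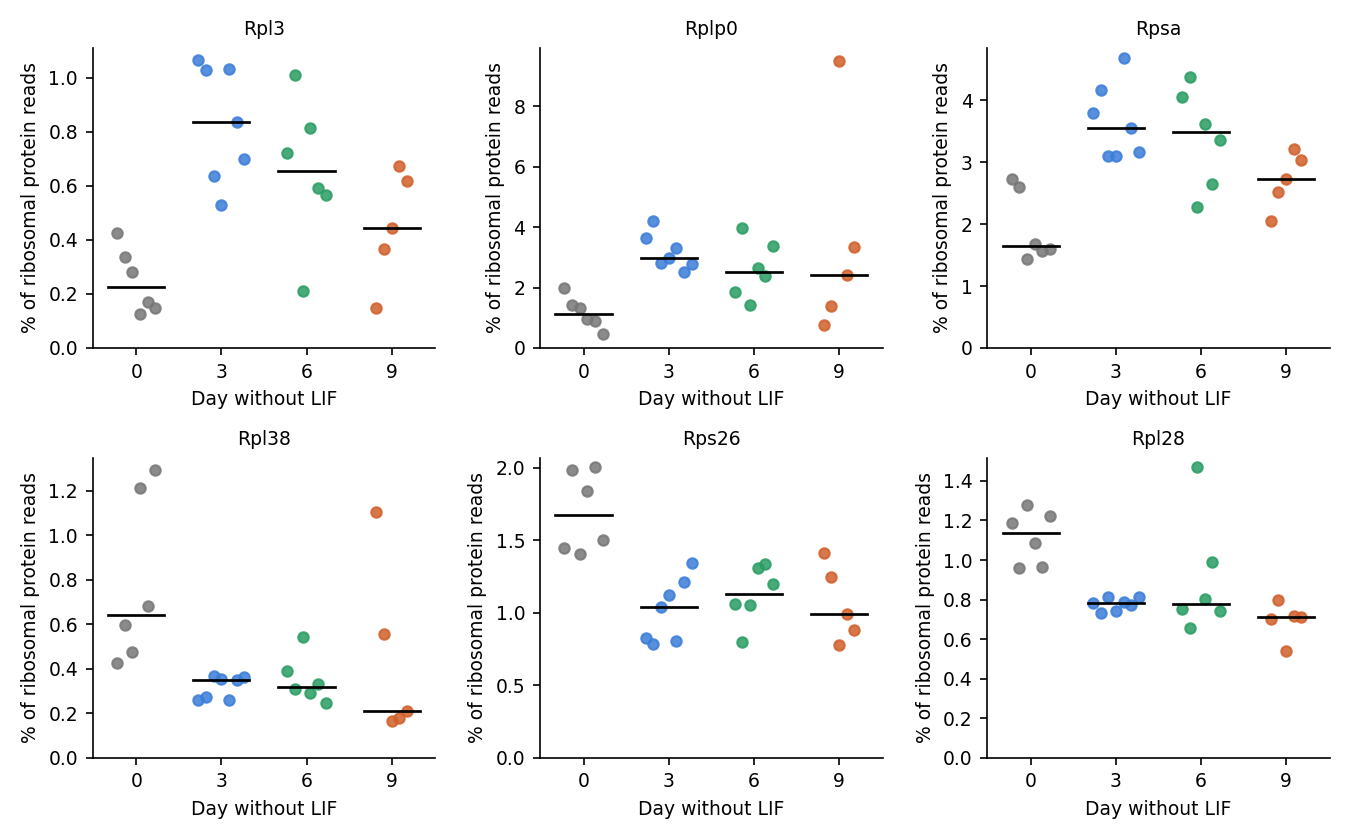
Share of ribosomal protein reads, in percent, of Rpl3, Rplp0, Rpsa, Rpl38, Rps26 and Rpl28 by day, with 1 point per cell and the median as a line. For all 6 genes the day 3 cells lie apart from the day 0 cells, above them for Rpl3, Rplp0 and Rpsa and below them for Rpl38, Rps26 and Rpl28.

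At day 6 against day 0, Rpl3 and Rplp0 stood well above the median gene and Rpl24 and Rpl38 well below it. Of 82 measured members, 3 were 2-fold higher (25.4% of all 15117 genes) and 5 lower (23.1% of all genes), and the median was -0.16. Its direction turned with the summary, to 0.14 as a median over cells, 0.14 with 10 CPM added and 0.31 with a minimum of 1 read. On summed counts with 1 CPM added it was -0.15 for the large and -0.29 for the small subunit, and -0.78 over day 0 cells 5 and 6 alone. Over those cells 2 members were higher (2.44%, against 26.9% of all genes so compared) and 29 lower (35.4%, against 24.8%). Without day 6 cell 2 there were 3 lower, without day 6 cell 3 there were 10 lower, without day 0 cell 4 there were 0 higher and 10 lower, and without day 0 cell 6 there was 1 higher. Rpl3 (1.23), Rpl7l1 (1.14) and Rplp0 (1.08) were the members called higher, and Rpl24 (-2.11), the copy Rpl39l (-1.38), Rpl38 (-1.18), Rps15 (-1.14) and Rpl34 (-1.05) those called lower. Of these, Rpl24 was 2-fold lower under every alternative run, and the others each crossed the 2-fold line under at least 1, Rpl7l1 with values as low as 0.48. In CPM, Rpl3 and Rpsa had cell ranges apart, where 1.26% of all genes were apart upwards and 0.192% downwards. Rpl3 had 350.1 to 1010.0 CPM in day 6 cells against at most 328 CPM in day 0 cells. Rpsa had 2864 to 5591 CPM in day 6 cells against 1022 to 2096 CPM in day 0 cells. Among small subunit genes Rps6 (0.73), Rpsa (0.72), the Rps3a1 copy Rps3a2 (0.66) and Rps4x (0.63) were highest. As a share of ribosomal protein reads, Rps26 was the member with cells apart, at 0.801% to 1.33% in day 6 cells and 1.41% to 2.01% in day 0 cells; 0.714% of all genes were apart upwards and 0.549% downwards on this scale.

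At day 9 against day 0 the set stood lower relative to the median gene. The log2 ratio of the median gene was 0.71, or 0.19 with 10 CPM in place of 1 added. A member called 2-fold lower here thus need not be 2-fold lower in CPM. Of all gene reads, the set held 8.86% at day 0 and 10.2% at day 9. Of 81 measured members, 2 were 2-fold higher (25.2% of all 15512 genes) and 26 were 2-fold lower (23.8% of all genes), or 19 of 48 large and 7 of 33 small subunit genes. The median was -0.56, with -0.72 for the large and -0.55 for the small subunit, and 63 of the 81 ratios were below 0. Over day 0 cells 5 and 6 alone the median was -1.06. Over those cells 1 member was higher (1.23%, against 27.4% of all genes so compared) and 43 were lower (53.1%, against 24.6%). With 10 CPM in place of 1 added, the median was -0.042, with 4 higher and 9 lower, and with TMM scaling -1.03, with 0 higher and 43 lower. The cell ranges of all members overlapped in CPM, while 2.11% of all genes were apart upwards and 0.193% downwards.

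The members called higher were Rpl7l1, a copy described further on, and Rplp0, at 1.41. Rplp0 had 357, 1194, 9479, 2386 and 4856 CPM in the 5 day 9 cells, against 407 to 1517 CPM in day 0 cells (median 1137). Cell 3 alone carried 9.49% of its ribosomal protein reads on Rplp0, and cell 1 lay below every day 0 cell. Without day 9 cell 3 the ratio was 0.68, under the 2-fold line, which left 1 member called higher. Rps6 at 0.69 was the highest small subunit gene, with 121, 652, 1556, 1289 and 1921 CPM in day 9 cells and 136 to 840.0 CPM in day 0 cells. Rps3 (0.31) came next, and Rpl13a, at 0.32, was the fourth of the large subunit.

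Of the lower members, the copy Rpl39l stood at -3.77, Rpl24 at -2.12, Rps21 at -1.98, Rpl38 at -1.85, Rpl34 at -1.81, Rps15 at -1.69, Rps29 at -1.54 and Rps27 at -1.41. Rps15 had 766, 904, 805, 786 and 1058 CPM in the 5 day 9 cells and 1055 to 2556 CPM in day 0 cells, so that 1 day 9 cell touched the lowest day 0 cell. Rpl38 had 510.3, 476, 165, 178 and 307 CPM in day 9 cells and 327 to 1164 CPM in day 0 cells. Its share of ribosomal protein reads was 1.10% and 0.557% in day 9 cells 1 and 2 but 0.165% to 0.212% in the other 3 cells, below every day 0 cell. Rpl28 was the member with cell ranges apart on that scale, at 0.538% to 0.797% in day 9 cells and 0.960% to 1.28% in day 0 cells; 2.62% of all genes were apart upwards and 0.226% downwards.

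Day 9 was also set against day 3, both without LIF and feeders. None of the 82 measured members was 2-fold higher (0, with 21.1% of all 15842 genes) and 6 were lower (19.3% of all genes), with a median of -0.42 and 76 of 82 ratios below 0. The large subunit stood at -0.41 and the small at -0.50. Taken as medians over cells the ratio of the set was 0.11, and with 10 CPM added 0.021, so its direction depends on how cells are summed and on the value added. Without day 9 cell 2 there were 3 lower, without day 9 cell 5 there were 15, and without day 3 cell 1 there were 14. The 6 were the copies Rpl39l (-3.62), Rpl6l (-1.51), Rpl10l (-1.44) and Rpl3l (-1.08), with Rpl3 (-1.14) and Rps2 (-1.11). Rpl3l rests on 131 reads in 5 cells over all days. In CPM, Rpl39l was the member with cell ranges apart, as were 0.499% of all genes downwards and 1.6% upwards. As a share of ribosomal protein reads, Rpl17 was apart upwards, at 0.559% to 0.717% in day 9 cells and 0.364% to 0.550% in day 3 cells. Rpl8, Rps2 and Rpl6l were apart downwards, and Rpl8 had 1.65% to 2.60% in day 9 cells and 2.94% to 3.99% in day 3 cells. On this scale 1.28% of all genes were apart upwards and 1.02% downwards. Of the small subunit genes, the Rps27 copy Rps27l stood highest (0.38), and Rps18 stood at -0.14.

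**Figure D3:**
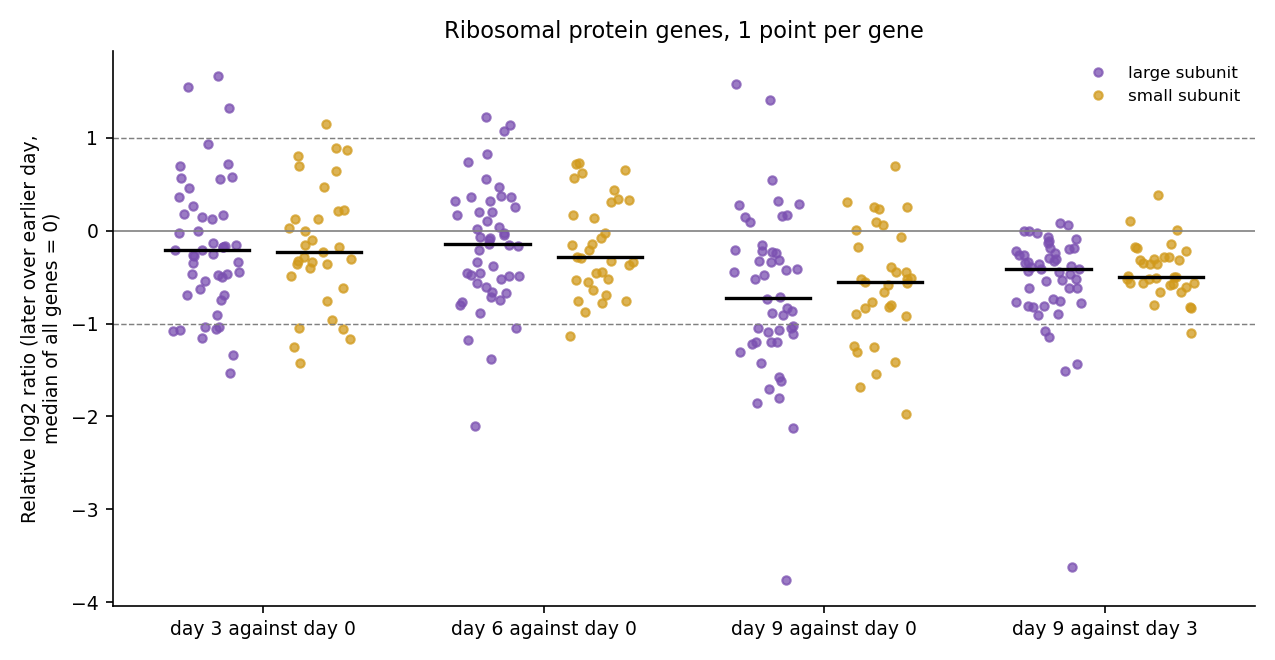
Relative log2 ratio of each measured ribosomal protein gene (later over earlier day, with the median of all genes at 0) in the 4 comparisons, large and small subunit apart, with medians as black lines and 2-fold lines dashed. Most members lie below 0, and the large subunit point far below the rest is Rpl39l, at -3.77 and -3.62 in the comparisons of day 9.

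Members were then ordered by message length. No transcript lengths were at hand, so the median RefSeq span of the processed pseudogenes named for a member, which are copies of spliced messages, stood for its length. It was had for 61 of the 74 canonical members with reads (82.4%), from 248 bases for Rps29 to 1314.5 bases for Rpl3, with a median of 527 bases. A span rests on as few as 1 pseudogene (as for Rplp0, Rplp2 and Rps29) and as many as 23 (Rpl31 and Rps12). How near it lies to the length of the message was not tested. Against day 0, the longer a member was by this measure, the higher it stood as a share of ribosomal protein reads. Spearman's rho across the 61 genes was 0.83 at day 3, 0.82 at day 6 and 0.84 at day 9, and 0.06 at day 9 against day 3. Genes are not independent replicates, and the first 3 values rest on the same day 0 cells. Of the members named above with day 3 cells apart by share, those upwards with a span had 893 (Rpl7) to 1314.5 bases (Rpl3). Those downwards with a span had 306.5 (Rpl38) to 483 bases (Rpl28). The upward ones were thus all longer, and the downward ones all shorter, than the median span.

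The 31 longer members had a median log2 ratio of shares of 0.23 at day 3, 0.28 at day 6 and 0.30 at day 9 against day 0. The 30 shorter ones had -0.56, -0.41 and -0.59. Leaving out any 1 cell left rho between 0.74 and 0.87, and with day 0 cells 5 and 6 alone it was 0.80, 0.82 and 0.85. The longer members drew 59.99% to 65.2% of the reads of all 61 in day 3 cells, against 39.9% to 56.97% in day 0 cells, so that these groups did not overlap. In day 6 cells they drew 51.3% to 67.6%. In the 5 day 9 cells they drew 41.8%, 54.4%, 66.5%, 63.5% and 64.2%, the first 2 within the day 0 range. The cause of these shifts was not tested.

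**Figure D4:**
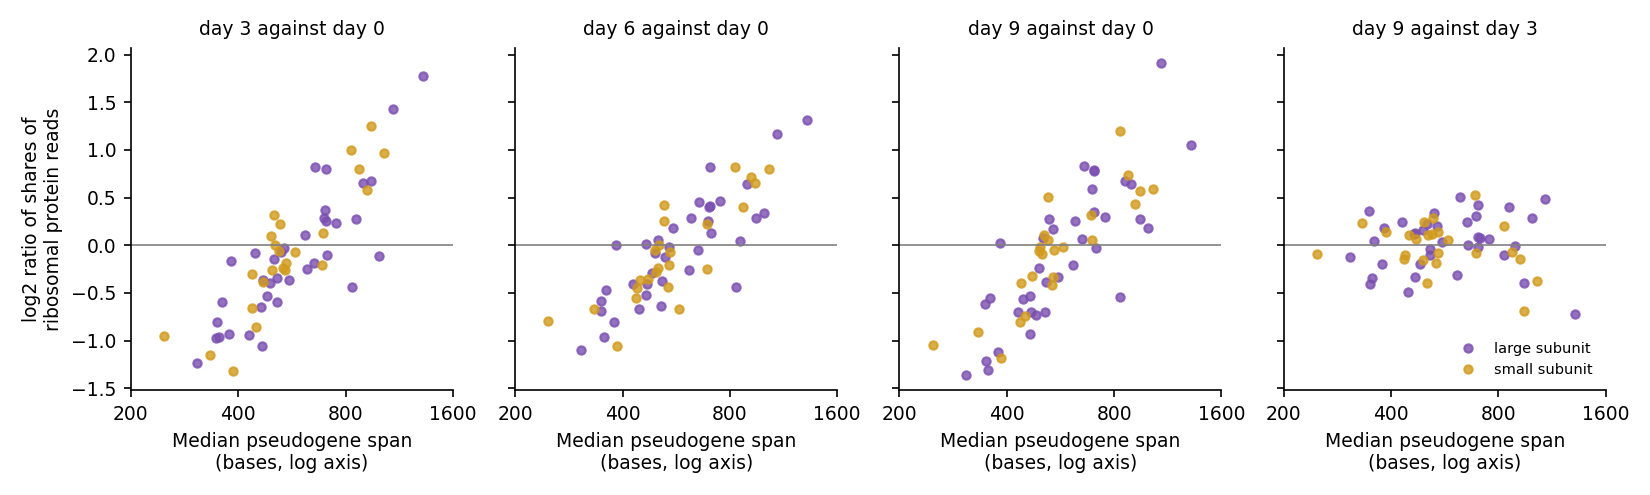
Log2 ratio of the share of ribosomal protein reads (later over earlier day) against the median span of a member's pseudogenes in bases (log axis), with 1 point per gene for 61 genes in the 4 comparisons. The points climb from lower left to upper right in the 3 comparisons with day 0 (rho 0.83, 0.82 and 0.84) and not at day 9 against day 3 (rho 0.06).

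The copies differed in how closely their CPM went with that of the parent gene across cells. Such correlations also carry the swings of the whole set between cells, so a high value is not particular to a copy and its parent. Rps3a2, which RefSeq lists as a pseudogene, had 33.9% to 55.6% of the CPM of Rps3a1 in every cell (Spearman's rho 0.98 over 24 cells), and Rpl6l 0.296% to 1.17% of that of Rpl6 (rho 0.82). With near-identical sequences, reads of a parent and its copy may be shared between them by the authors' counting, so the levels of both are uncertain. Rpl22l1 stood at 55.7% to 241% of Rpl22, and Rps27l at 47.5% to 274% of Rps27. Between these and the lowest lay a graded series, with rho 0.75 for Rpl7l1, 0.74 for Rpl22l1, 0.63 for Rps27l and 0.31 for Rpl10l. Lowest were Rpl39l at -0.03 and Rpl3l at -0.12.

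Rpl39l, a copy of Rpl39 known for its role in the ribosomes of the mouse testis, had 81.6, 77.2, 43.6 and 8.90 CPM on days 0, 3, 6 and 9. The day 6 level rests on cell 5 (163 CPM), without which it was 21.7 CPM. The 5 day 9 cells had 33.5, 14.9, 0, 6.63 and 4.75 CPM. Day 3 cells had 34.4 to 129 CPM (median 78.8), which put the lowest of them just above the highest day 9 cell, and day 0 cells had 0 to 155 CPM (median 71.2). The ratio of day 9 to day 3 was 0.115 (counting interval 0.103 to 0.129). Rpl39 itself did not share this order: Rpl39l was 3.28% of Rpl39 at day 9, against 33.9% at day 3 and 23.6% at day 0, and rho between them was -0.03.

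Rpl10l, the retrogene of the X-linked Rpl10, was absent from 2 of 6 day 0 cells and reached 215 CPM in another. At day 9 it had 22.2, 1.41, 108, 6.48 and 10.7 CPM (summed, 35.2 CPM, or 8.87 CPM without cell 3), against 17.8 to 139 CPM in day 3 cells and 0 to 215 CPM in day 0 cells, which overlap. Rpl7l1 had 10.2, 93.7, 206, 117 and 93.4 CPM in day 9 cells and 0 to 69.6 CPM in day 0 cells, with 4 of 5 day 9 cells above every day 0 cell. Its relative log2 ratio against day 0 was 1.55 at day 3, 1.14 at day 6 and 1.57 at day 9. Rpl3l, the muscle form of Rpl3, had reads in 5 cells, at most 1.05% of the CPM of Rpl3.

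**Figure D5:**
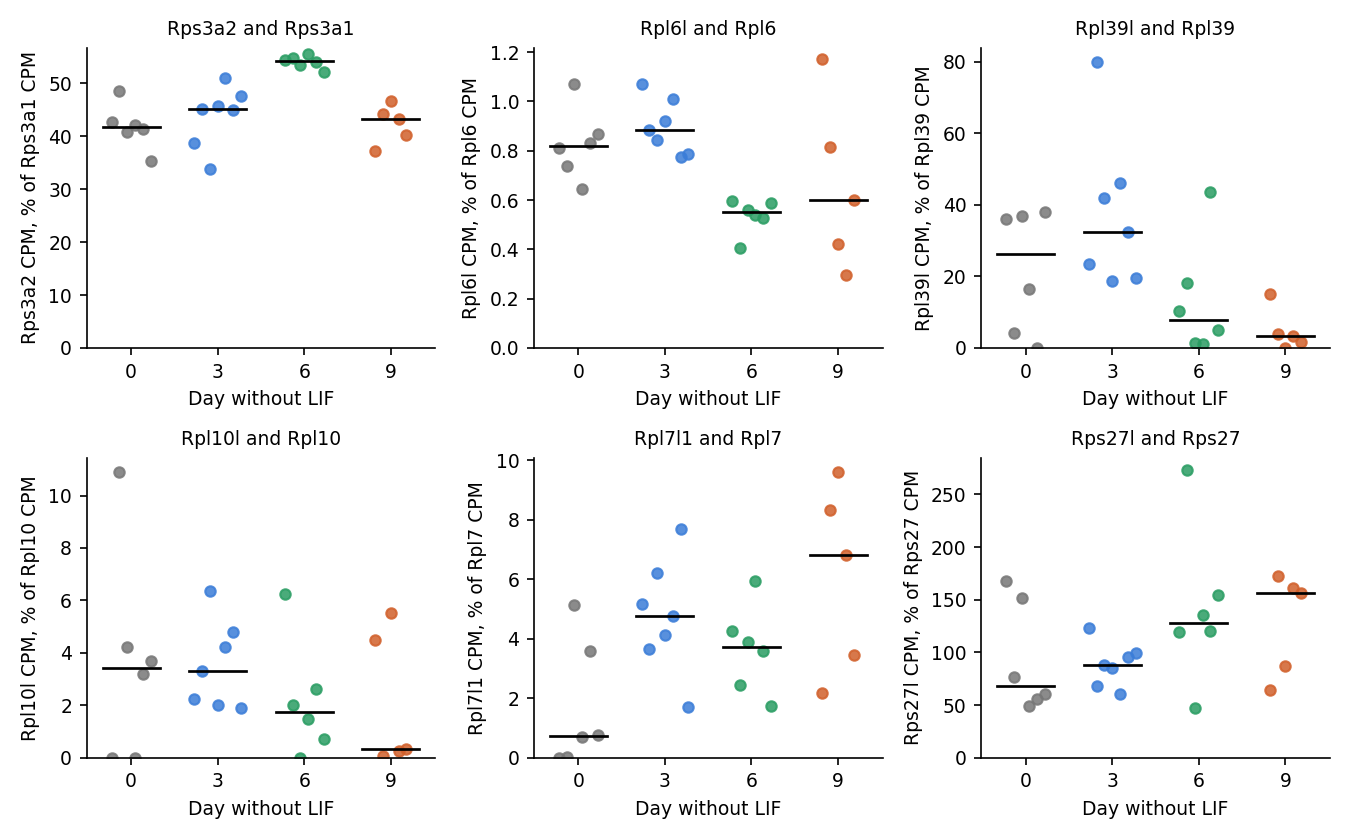
CPM of 6 copies as a percentage of the CPM of the parent gene, by day, with 1 point per cell and the median as a line. Rps3a2 stays between 33.9% and 55.6% of Rps3a1 in every cell, while Rpl39l runs from 0% to 79.9% of Rpl39 and, pooled over cells, is at 3.28% of it at day 9.

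Genes around the ribosome were described from lists. Of the ribosomal proteins whose names fall outside the rule, Fau, which is made as a fusion with a ubiquitin-like protein, stood at -1.03 at day 9 against day 0, the Rpl36a relative Rpl36al at -1.34 and Rack1 at 0.25, and Rps27rt had 0 reads. The 73 measured of 78 mitochondrial ribosomal proteins, built for the separate ribosome of mitochondria, had medians of -0.15, 0.08 and -0.13 at days 3, 6 and 9 against day 0. At day 9, 12 of the 73 were 2-fold higher and 18 lower, where 25.2% and 23.8% of all genes were. Mrpl16 stood at 3.76 and Mrpl24 at -2.33. Mrpl16 had 64.7 CPM at day 9 against a low 1.98 CPM at day 0, where cells 1 to 3 had 0 and cell 4 had 10.0 CPM. Mrpl24 had 25.3 CPM at day 9 (8.67 CPM without cell 5), against 79.7 CPM at day 0.

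Of other genes whose messages carry a TOP start, 13 were listed, 10 of the translation machinery together with Hnrnpa1, Nap1l1 and Tpt1. Their median was 0.66, 0.58 and 0.53 at days 3, 6 and 9 against day 0, with 4, 3 and 2 of the 13 genes 2-fold higher and 0 lower in each. Of all genes, 20.7%, 25.4% and 25.2% were higher and 23.5%, 23.1% and 23.8% lower. The ribosomal protein genes had medians of -0.22, -0.16 and -0.56, of which that of day 6 changed sign with the summary, as given above. The listed TOP genes and the ribosomal protein genes were not matched for message length. Eef1a1, the elongation factor that brings aminoacyl-tRNA, stood at 5443 CPM at day 3 against 1541 CPM at day 0 (relative log2 ratio 1.73). Eef1g stood at 782 CPM against 178 CPM (2.04). At day 9 against day 3 the median of these 13 genes was -0.41, near the -0.42 of the ribosomal protein genes.

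Of 30 ribosome biogenesis genes, 8, 8 and 9 were 2-fold higher and 2, 3 and 7 lower at days 3, 6 and 9 against day 0, with medians of 0.10, 0.45 and 0.48. These counts lie near those of all genes, of which 20.7%, 25.4% and 25.2% were higher and 23.5%, 23.1% and 23.8% lower, apart from fewer lower at days 3 and 6. Npm1, the nucleolar chaperone, stood at 1682 CPM at day 3 against 717 CPM at day 0 (1.13) and at 2864 CPM at day 9 (1.29). Nop56, a box C/D particle protein, stood at 111 CPM at day 9 against 15.2 CPM at day 0 (2.08), or 6.77 CPM at day 0 without cell 4. Dkc1, the pseudouridine synthase, stood at 154 CPM at day 9 against 584 CPM at day 0 (-2.62). With day 0 cells 5 and 6 alone the medians were 0.14, -0.06 and 0.06. The 11 measured of 12 growth control genes had a median of -0.68 at day 9 against day 0, with 4 genes 2-fold higher and 4 lower. Mtor stood at -1.63, Larp1 at -1.06 and Rptor, the mTOR partner raptor, at -1.01. The day 0 levels of these 3 fell with 1 cell left out. Without cell 4 Larp1 had 10.2 CPM at day 0, against 30.1 CPM with it, and Rptor had 9.99 CPM, against 20.3 CPM. Without cell 5 Mtor had 14.9 CPM at day 0, against 25.7 CPM with it. Trp53, which codes for p53, stood at 70.6 CPM at day 9 against 16.6 CPM at day 0 (1.32). Mycn, a transcription factor of growth, stood at 3.57, on 61.0 CPM at day 9 (11.1 CPM without cell 3) against 2.2 CPM at day 0, where 3 of 6 cells had a read.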

How the data were processed

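RNA of 24 mESCs was analysed, 1 cell per library. The deposited files hold raw read counts by gene, 1 file for each cell. Which aligner, counter and strand setting gave the RNA counts is not given in the sources used here; mm10, Trim Galore 0.6.7, Bismark and Bowtie2 2.2.9 are named per the submitters' processing notes. The 5 closing lines of each library held 21.3% to 60.5% of all reads (among them unaligned, not unique and ambiguous reads) and were left out of totals. Reads shared by copies or overlapping genes were therefore lost or split in a way that cannot be traced. There are no molecular identifiers, so intervals cover counting error only. K562 libraries and DNA samples were not analysed here.

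Of 55401 gene IDs, 55141 were matched to a symbol with the version ignored. Counts were summed over the cells of a day and scaled to CPM, with 1000000 gene reads as the total. Exact Poisson (CPM), Clopper-Pearson (shares) and conditional binomial (ratios) intervals at 95% were computed, and no p-value. Symbols ending in -ps (299 named for a member) were kept apart. Named genes were the 4 highest and 4 lowest ratios per subunit and comparison, the 4 with most and 4 with fewest reads, all members with 0 reads, all copies, and the largest ratios of other lists. Some genes that this rule names are not reported here. Members and lists were chosen with earlier results of these data known. Alternatives were TMM (edgeR 4.0.16), DESeq2 1.42.0 size factors, means and medians over cells, other totals, pseudocounts of 0.1 and 10 CPM, other read minimums, pseudogene reads added, and each cell left out. The ratio step was tested on simulated counts. Python 3.11.15, numpy 2.4.6, pandas 2.3.3, scipy 1.17.1, matplotlib 3.10.9 and R 4.3.3 were used.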

Additional observations from a re-analysis of the deposited data

Results flagged for a closer look

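Among 116 groups of 5 to 7 cells (29 measures on 4 days), 10 held a cell whose gap to the nearest other cell was larger than Dixon's 95% limit. Chance flags about 1 in 20 groups where values follow a normal distribution, which was not checked for CPM of single cells. The genes were taken with earlier results known, and measures of 1 cell are not independent. In day 6 cell 1 the log2 ratio of large to small subunit reads was 0.28, with the nearest other cell at 0.39. Day 6 cell 3 stood above the other day 6 cells for Rpl38 (896 CPM, next 428), Rpl41 (6199.6 CPM, next 2915) and Rps15 (2969 CPM, next 1382). Day 0 cell 5 had 2683 CPM of Rps26 (next 1501). Day 6 cell 5 had 163 CPM of Rpl39l (next 41.9), and day 6 cell 4 had 162 CPM of Rpl7l1 (next 76.1). Rpl10l stood at 215 CPM in day 0 cell 2 (next 80.0) and at 108 CPM in day 9 cell 3 (next 22.2). Rpl6l stood at 23.0 CPM in day 9 cell 5 (next 8.74). In day 6 cell 3 the longer members drew 51.3% of the reads, the lowest of the day 6 cells.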

How the results depend on the processing

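No paired analysis was possible because each day is 1 sample of separate single cells. No result comes from a test between days.

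Medians. At day 6 the median turned to 0.14 (median over cells), 0.14 (10 CPM added) and 0.31 (minimum of 1 read); it was -0.78 with day 0 cells above 10% mitochondrially encoded reads left out. At day 9 against day 0 it was -1.03 (TMM), -0.99 (DESeq2) and -0.94 (0.1 CPM added). With 10 CPM added the day 9 median was -0.042 against day 0 and 0.021 against day 3; with a minimum of 1 read these were -0.015 and 0.027. As a median over cells, day 9 against day 3 was 0.11. Without 1 cell at a time the medians ran from -0.56 to -0.01, -0.49 to -0.04 and -0.92 to -0.49 at days 3, 6 and 9 against day 0 and from -0.66 to -0.28 at day 9 against day 3.

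Counts of members called. At day 3, lower calls numbered 22 (median over cells), 6 (10 CPM added), 6 (minimum of 1 read), 5 (minimum of 200 reads) and 29 (high mitochondrial cells left out), and higher calls 7 (minimum of 200). At day 6, higher and lower calls were 1 and 12 with 0.1 CPM added, 6 and 1 with 10 CPM, 11 and 1 with a minimum of 1, 1 and 9 with a minimum of 200, and 5 and 2 as a median over cells; higher calls were 1 with TMM, and lower calls 3 as a mean over cells and 29 with the high mitochondrial cells left out. At day 9 they were 0 and 43 with TMM, 1 and 40 with DESeq2, 4 and 9 with 10 CPM or a minimum of 1, and 1 and 43 without the high mitochondrial cells; higher calls were 1 as a median over cells and 1 without copies. At day 9 against day 3, lower calls were 12 (TMM), 16 (CT010467.1 left out), 17 (0.1 CPM), 1 (10 CPM), 2 (minimum of 1), 10 (minimum of 200) and 2 (without copies), and higher calls 1 as a median over cells. Without 1 cell at a time, higher calls ran from 2 to 8, 0 to 4, 1 to 2 and 0 to 0, and lower calls from 3 to 17, 3 to 10, 22 to 37 and 3 to 15, in the order of the comparisons. The cause of these shifts was not tested; a minimum of 1 or 200 reads and the added CPM change the median gene that ratios are taken against.

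Shares and subunits. Without CT010467.1 the shares were 16.5%, 19.3%, 18.0% and 14.4% at days 0, 3, 6 and 9. Without 1 cell at a time they ran from 8.15% to 9.26%, 7.84% to 9.74%, 10.9% to 13.2% and 8.83% to 10.9%. The log2 ratio of large to small subunit reads ran from 0.27 to 0.32, 0.29 to 0.33, 0.38 to 0.41 and 0.33 to 0.38. With the 5 members of most reads of each subunit left out it was 0.44, 0.39, 0.46 and 0.32, with day 9 now below day 0, and per kilobase of pseudogene span, an alternative chosen after seeing the data, 0.40, 0.41, 0.50 and 0.47. Reads per kilobase of coding length were not run, as no lengths were used here. Of the 35 called ratios of named genes, 24 fell under 2-fold in at least 1 alternative, 11 in none, and 0 changed sign.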
